A study of Homo sapiens with 15 samples.

Results

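The genes described here are those of cholesterol synthesis and of sterol sensing, with the carriers and pumps that move sterol through the cell and out of it. The list holds 29 genes, all 29 of them present among the 25681 gene symbols of the count tables. Where a gene had several transcript rows, the row was chosen by its count summed over all 15 libraries. The list itself was drawn up when falls of such genes under dBRD9-A were already known, so its counts in that comparison describe the list and support no direction. By role there are 19 enzymes of synthesis, 4 genes of sterol sensing, 3 carriers and 3 genes of efflux or of the response to the nuclear receptor LXR.

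RNA was sequenced from HSSYII cells, an established line of synovial sarcoma driven by the fusion protein SS18-SSX1, which were kept in medium with fetal bovine serum. In the first experiment cells received 100 nM dBRD9-A (dBRD9A in the labels), a degrader of the chromatin protein BRD9, or 0.0001% DMSO, each for 6 hr. In the second experiment cells carried GFP tagged lentivirus with the hairpin shSS18-SSX1-1, shSS18-SSX1-2 or the control shRenilla, and were collected at 96 hr. Each of the 5 groups had 3 libraries. Virus was used at an MOI of 1.0 and infected cells were not selected with a drug, so uninfected cells may have contributed to all 9 hairpin and shRenilla libraries. All results come from 1 cell line, and in such bulk RNA fewer cells of a type and less RNA per cell cannot be told apart. No source tells if replicate libraries stem from independent cultures, and all p-values given refer only to library-to-library spread, part or all of which could be technical.

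Cells make cholesterol from acetyl-CoA through mevalonate, isoprenoids, squalene and lanosterol. When sterol in the endoplasmic reticulum is low, SCAP escorts the transcription factor SREBP-2, the product of SREBF2, to the Golgi, where it is cut free to enter the nucleus and activate genes of synthesis. When sterol is plentiful, INSIG proteins hold SCAP back, and oxysterols activate LXR, which raises the efflux pumps ABCA1 and ABCG1. INSIG1 is itself a target of SREBP-2, so that it closes a feedback loop.

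Total counts were 18580419 to 27031647 per library (median 22382782). The shRenilla replicate 1 stood apart from replicates 2 and 3 (their counts gave a chi-square per degree of freedom of 36.5 and 27, where no other replicate pair exceeded 9.85), and calls that changed, or called values that moved by over 1.5 times, without it are given beside the result. The hairpin target fell: SSX1 had 28.99, 29.2 and 27.8 CPM (counts scaled to library size, with TMM factors) with shSS18-SSX1-2 and 20.9, 20.7 and 18.7 CPM with shSS18-SSX1-1, against 77.04, 58.5 and 55.1 CPM with shRenilla. Reads of SSX1 can also match its close SSX paralogs. Defining genes of the line (SS18, SSX1, TLE1, TWIST1, BCL2) were present in every library. The 3 endothelial and 4 hepatocyte markers were each under 1 CPM in every library, as were PTPRC, CD3E and LYZ of the 4 leukocyte markers, and CD68 had 2.85 to 6.58 CPM.

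SREBP-2 binds sterol regulatory elements and usually acts with the factors NF-Y and SP1. For 25 of the 29 genes RefSeq (GRCh38.p14) gave a window of 250 bases before to 50 bases after the gene start, which was searched on both strands for the sterol regulatory element as TCACNCCAC, for NF-Y as CCAAT and for SP1 as GGGCGG. The table gave no window for ACAT2, FDFT1, SQLE and ABCG1. The sterol regulatory element letters were found in 1 of 25 windows, that of SREBF2 (4%), beside 1.13% of 35116 windows of all genes, and with 1 mismatch allowed in 10 of 25 (40.0%), beside 24.5%. The NF-Y letters were in 17 of 25 windows (68.0%) beside 34.6% of all windows, and the SP1 letters in 23 of 25 (92.0%) beside 45.0%. Genes tested for dBRD9-A are a closer background for SP1, where 70.4% of 9821 windows held its letters, beside 36.8% for NF-Y and 1.15% for the sterol regulatory element. A match is a description of the letters and not a binding site.

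These 4 stretches are 3 for the largest falls under dBRD9-A that have a window and that of SREBF2 for its exact match. Each is the 250 bases before the gene start in the gene's direction, with the CCAAT letters (ATTGG on the other strand) and the exact sterol regulatory element in capitals.
INSIG1, chr7:155297628-155297877, + strand: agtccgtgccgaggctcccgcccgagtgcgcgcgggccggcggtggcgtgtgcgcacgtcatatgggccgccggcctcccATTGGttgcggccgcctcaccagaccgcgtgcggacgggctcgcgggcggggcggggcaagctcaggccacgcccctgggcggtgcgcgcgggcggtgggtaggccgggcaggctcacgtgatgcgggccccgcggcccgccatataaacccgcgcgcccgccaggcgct
STARD4, chr5:111512536-111512785, - strand: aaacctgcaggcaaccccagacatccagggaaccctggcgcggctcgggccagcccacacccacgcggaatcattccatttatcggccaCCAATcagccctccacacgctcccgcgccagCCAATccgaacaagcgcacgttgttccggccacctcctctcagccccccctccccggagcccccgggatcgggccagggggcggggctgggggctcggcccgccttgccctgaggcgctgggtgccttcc
MSMO1, chr4:165327419-165327668, + strand: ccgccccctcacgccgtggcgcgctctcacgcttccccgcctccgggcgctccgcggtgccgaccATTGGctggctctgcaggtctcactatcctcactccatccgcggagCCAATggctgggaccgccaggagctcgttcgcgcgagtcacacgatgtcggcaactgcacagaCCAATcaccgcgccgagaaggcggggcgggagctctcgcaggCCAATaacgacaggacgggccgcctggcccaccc
SREBF2, chr22:41832855-41833104, + strand: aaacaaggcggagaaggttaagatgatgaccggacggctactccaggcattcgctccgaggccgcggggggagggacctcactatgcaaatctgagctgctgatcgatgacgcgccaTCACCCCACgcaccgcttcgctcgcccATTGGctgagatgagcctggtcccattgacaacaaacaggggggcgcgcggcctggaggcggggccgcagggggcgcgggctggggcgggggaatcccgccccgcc

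The sterol regulatory element of SREBF2 began 133 bases before the start and its NF-Y letters 106 bases before it. INSIG1 held the NF-Y letters 170 bases before the start, STARD4 161 and 130 bases before it, and MSMO1 had 4 matches. NF-Y letters were in 12 of 16 windows of the synthesis enzymes and in 5 of 9 windows of the other genes. Of the genes called lower with dBRD9-A 12 of 16 windows held them, against 5 of 9 windows of the genes not called lower.

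After 6 hr of dBRD9-A, 19 of the 29 genes were lower than with DMSO, 1 was higher and 9 did not pass the test. The largest falls were those of INSIG1, which holds SCAP back, and STARD4, a cytosolic sterol carrier, the only 2 genes past 1.5-fold. The falls of the 14 enzymes of synthesis called lower ran from 0.10 to 0.56 on the log2 scale. A call here is an adjusted p under 0.05 (edgeR quasi-likelihood test, Benjamini-Hochberg over all genes tested). By this rule 18.2% of 13652 genes were lower and 17.7% higher, and 0.593% were lower past 1.5-fold. The median log2 fold change was -0.29 over the 29 genes and 0.01 over all genes tested. A change common to all genes would be removed by TMM scaling, and the tables held 0 spike-in rows. All of these genes passed the filter on low counts in each comparison.

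Of the 4 sensing genes 3 were lower. INSIG1 (chromosome 7, positions 155089486 to 155101945 of GRCh37) had 75.6, 75.1 and 74.8 CPM with dBRD9-A, against 153, 158 and 155 CPM with DMSO. The groups lay far apart and each was tight, a 2.06-fold fall (log2 fold change -1.04, SE 0.036, adjusted p = 4.79e-20 from edgeR). SREBF2 fell by 0.34 on the log2 scale (SE 0.035, adjusted p = 6.83e-09) to a mean of 154 ± 4.14 CPM with dBRD9-A, against 196 ± 8.47 CPM with DMSO (SD, n = 3 each; edgeR). SCAP, the escort of SREBP-2, fell by 0.15 (adjusted p = 0.00343 from edgeR), but did not pass in the fit of all 15 libraries (-0.16, adjusted p = 0.3). INSIG2, a close relative of INSIG1 that is not under the same feedback, did not pass (log2 fold change 0.08, 95% interval -0.07 to 0.23).

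Of the 3 carriers 2 were lower. STARD4 (chromosome 5, positions 110831731 to 110848288 of GRCh37) had 22.4, 23.4 and 23.2 CPM with dBRD9-A, against 43.02, 41.5 and 40.1 CPM with DMSO. Every dBRD9-A library lay below every DMSO library, and the fall was 1.80-fold (log2 fold change -0.85, SE 0.053, adjusted p = 8.83e-14 from edgeR). NPC1, the membrane protein that exports cholesterol from lysosomes, had 26.9, 25.2 and 26.6 CPM with dBRD9-A, against 29.2, 30.7 and 27.7 CPM with DMSO. Its groups came close without overlapping, and the change was small (log2 fold change -0.15, SE 0.056, adjusted p = 0.0375 from edgeR). NPC2, which hands cholesterol to NPC1 inside the lysosome, had 26.6, 29.6 and 27.8 CPM with dBRD9-A, against 26.05, 27.4 and 29.2 CPM with DMSO, and did not pass (log2 fold change 0.03, SE 0.058, adjusted p = 0.692; edgeR).

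In the arm that ends in isopentenyl diphosphate, 4 of 5 genes were lower. MVK, mevalonate kinase, had 16.7, 17.4 and 15.2 CPM with dBRD9-A, against 20.2, 22.8 and 21.2 CPM with DMSO (log2 fold change -0.37, SE 0.068, adjusted p = 6.07e-05 from edgeR). MVD, the decarboxylase of the same arm, had 24.7, 22.7 and 22.8 CPM with dBRD9-A, against 27.7, 32.8 and 31.2 CPM with DMSO (log2 fold change -0.38, SE 0.062, adjusted p = 1.48e-05 from edgeR). Neither gene's groups overlapped. HMGCS1, the synthase that makes HMG-CoA, fell by 0.37 on the log2 scale with the smallest SE of the arm (0.031). ACAT2, the cytosolic thiolase that joins acetyl-CoA units, had 92.00, 95.4 and 89.6 CPM with dBRD9-A, against 101, 102 and 95.7 CPM with DMSO. Its groups nearly touched, and the fall was 0.10 (adjusted p = 0.0347 from edgeR). PMVK, phosphomevalonate kinase, did not pass (log2 fold change 0.07, 95% interval -0.04 to 0.18).

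Of the 3 isoprenoid genes only IDI1, the isomerase of isopentenyl diphosphate, was lower, by 0.34 (SE 0.036, adjusted p = 8.35e-09 from edgeR). FDPS, farnesyl diphosphate synthase, had 165, 160.2 and 158 CPM with dBRD9-A, against 167, 181 and 160.0 CPM with DMSO. These ranges overlapped, and FDPS did not pass (log2 fold change -0.07, 95% interval -0.14 to 0.01). GGPS1, which makes geranylgeranyl diphosphate for a branch away from sterols, did not pass either (-0.04, -0.13 to 0.04). FDPS has near-identical pseudogene copies that may share its reads.

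All 3 genes that build and close the squalene chain were lower. SQLE, squalene epoxidase, had 168, 174 and 174 CPM with dBRD9-A, against 245, 247 and 233 CPM with DMSO (log2 fold change -0.48, SE 0.033, adjusted p = 6.92e-13 from edgeR). LSS, lanosterol synthase, had 137, 137 and 145 CPM with dBRD9-A, against 161, 184 and 168 CPM with DMSO (log2 fold change -0.29, SE 0.040, adjusted p = 1.08e-06 from edgeR). In both genes the dBRD9-A libraries all lay below the DMSO libraries. FDFT1, squalene synthase, fell by 0.35 (SE 0.038, adjusted p = 1.53e-08 from edgeR).

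From lanosterol to cholesterol 6 of 8 genes were lower. MSMO1, a methylsterol oxidase, had 51.7, 51.3 and 52.6 CPM with dBRD9-A, against 76.1, 77.5 and 77.3 CPM with DMSO (log2 fold change -0.56, SE 0.041, adjusted p = 3.27e-12 from edgeR). CYP51A1, the lanosterol demethylase, had 104, 108 and 107 CPM with dBRD9-A, against 154, 153 and 147 CPM with DMSO (log2 fold change -0.51, SE 0.035, adjusted p = 1.17e-12 from edgeR). The groups did not overlap for either gene. HSD17B7, a ketosteroid reductase with a near-identical pseudogene, had 6.48, 7.99 and 6.96 CPM with dBRD9-A, against 9.66, 10.4 and 9.71 CPM with DMSO (log2 fold change -0.47, SE 0.093, adjusted p = 0.000185 from edgeR). TM7SF2, a sterol reductase, had 8.21, 9.07 and 8.92 CPM with dBRD9-A, against 9.296, 12.5 and 10.6 CPM with DMSO (log2 fold change -0.30, SE 0.095, adjusted p = 0.0128 from edgeR). TM7SF2 was among the lowest counted of the enzymes, and its DMSO libraries were spread more widely than its dBRD9-A libraries. DHCR7, the reductase that completes cholesterol, had 88.3, 93.05 and 90.6 CPM with dBRD9-A, against 112, 123 and 112 CPM with DMSO (log2 fold change -0.35, SE 0.041, adjusted p = 4.77e-08 from edgeR). SC5D, a sterol desaturase, fell by 0.12 (adjusted p = 0.0239 from edgeR). NSDHL, which removes a carboxyl group from the sterol ring, and EBP, a sterol isomerase, did not pass (95% intervals -0.22 to -0.00 and -0.19 to 0.08).

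Of the efflux genes, ABCA1 had 8.04, 7.67 and 7.27 CPM with dBRD9-A, against 6.38, 5.65 and 6.44 CPM with DMSO, a rise of 0.33 on the log2 scale (SE 0.098, adjusted p = 0.00978 from edgeR). ABCG1 had 4.55, 4.91 and 5.26 CPM with dBRD9-A, against 3.64, 4.58 and 5.39 CPM with DMSO, and did not pass (0.13, 95% interval -0.13 to 0.38). MYLIP, an LXR target that marks lipoprotein receptors for degradation, did not pass (0.01, -0.11 to 0.12).

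The calls of ACAT2, TM7SF2, SC5D, NPC1 and ABCA1 rested on single libraries. ACAT2 lost its call without DMSO replicate 1 or 2 or dBRD9-A replicate 1 or 3 (adjusted p = 0.0533 to 0.154 from edgeR) and TM7SF2 without DMSO replicate 2 or dBRD9-A replicate 1 (0.143 and 0.0744), its log2 fold change being -0.18 without DMSO replicate 2. SC5D lost it without DMSO replicate 1 or dBRD9-A replicate 1 or 2 (0.0731 to 0.102 from edgeR), NPC1 without DMSO replicate 2 or any of the dBRD9-A replicates (0.0557 to 0.175), and ABCA1 without DMSO replicate 2 or dBRD9-A replicate 1 (0.055 and 0.0526). None of these 5 passed with DESeq2 (ACAT2 0.0504, TM7SF2 0.0587, SC5D 0.0535, NPC1 0.108, ABCA1 0.0876). FDPS gained a call without DMSO replicate 3 (0.0389 from edgeR) and NSDHL without DMSO replicate 1 (0.0189).

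**Figure D1:**
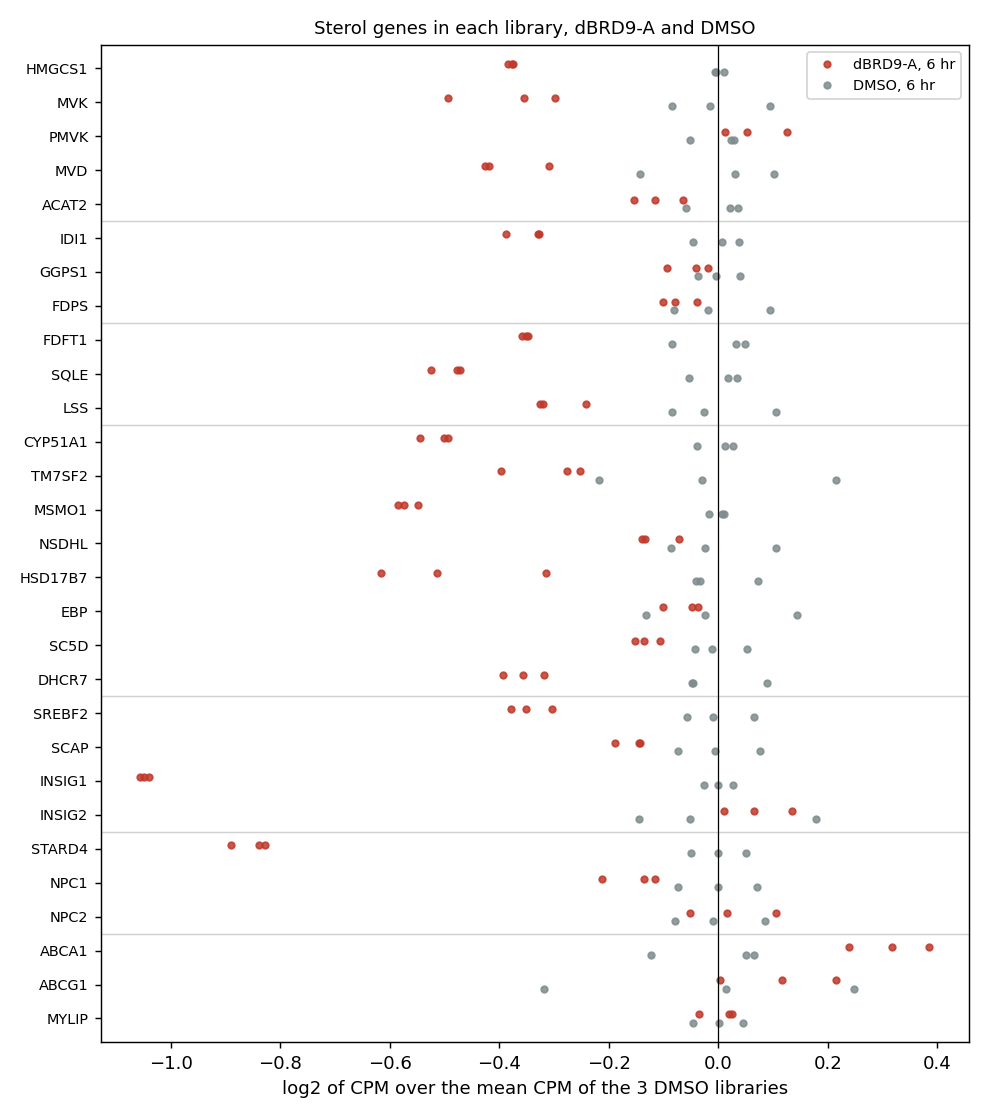
Each point is 1 library: the log2 ratio of its CPM to the mean of the 3 DMSO libraries (horizontal axis) for the 29 genes (vertical axis, lines between roles), dBRD9-A in red and DMSO in grey. INSIG1 and STARD4 lie furthest left, and ABCA1 is the gene whose dBRD9-A points all lie to the right of its DMSO points with a call.

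With SS18-SSX1 knockdown genes of the list moved in both directions. At 96 hr 6 genes were lower than with shRenilla, 5 were higher and 18 did not pass, where 22.1% of 14269 genes were lower and 22.5% higher by the same rule. The called shares of the list, 20.7% lower and 17.2% higher, were near those of all genes. The 2 efflux pumps ABCA1 and ABCG1 rose past 1.5-fold, as 12.5% of all genes did, and 0 fell past it, beside 5.90% of all genes. The median log2 fold change was -0.04 over the 29 genes and -0.01 over all genes tested. Over the 19 enzymes of synthesis it was -0.19 with knockdown, beside -0.34 with dBRD9-A. Libraries were more spread here: the coefficient of variation common to all genes was 8.91%, against 2.78% in the dBRD9-A fit. The counts of calls in the 2 experiments are therefore not of equal precision. Without shRenilla replicate 1, 5 genes were lower and 5 higher.

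ABCA1 (chromosome 9, positions 107543287 to 107690436 of GRCh37) had 16.5, 21.9 and 16.4 CPM with shSS18-SSX1-2 and 22.4, 17.2 and 20.5 CPM with shSS18-SSX1-1, against 3.36, 4.13 and 2.999 CPM with shRenilla. All 6 hairpin libraries were several times above all 3 shRenilla libraries, a 5.42-fold rise of the mean of both hairpins (log2 fold change 2.44, SE 0.15, adjusted p = 1.97e-08 from edgeR). ABCG1 had 8.95, 7.48 and 9.75 CPM with shSS18-SSX1-2 and 7.47, 9.08 and 8.91 CPM with shSS18-SSX1-1, against 4.605, 4.48 and 5.13 CPM with shRenilla. Again no library overlapped (1.79-fold, log2 fold change 0.84, SE 0.12, adjusted p = 6.75e-05 from edgeR). MYLIP, the other LXR target, had a log2 fold change of 0.02 (95% interval -0.23 to 0.28). CD68, a leukocyte marker and the only marker of other cells above 1 CPM, also rose (0.51, adjusted p = 0.026 from edgeR), and its part in the result was not tested.

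Both lysosomal cholesterol carriers rose. NPC1 had 33.99, 32.1 and 32.9 CPM with shSS18-SSX1-2 and 34.7, 31.9 and 33.7 CPM with shSS18-SSX1-1, against 22.4, 26.5 and 29.3 CPM with shRenilla (log2 fold change 0.34, SE 0.085, adjusted p = 0.0054 from edgeR). NPC2 had 59.7, 65.9 and 52.5 CPM with shSS18-SSX1-2 and 55.5, 59.9 and 68.1 CPM with shSS18-SSX1-1, against 51.4, 49.2 and 40.97 CPM with shRenilla (log2 fold change 0.34, SE 0.10, adjusted p = 0.014 from edgeR). The hairpin libraries lay above the shRenilla libraries for both genes, narrowly so for NPC2, whose call was lost without shRenilla replicate 3 (adjusted p = 0.0668 from edgeR). STARD4 had a log2 fold change of -0.04 (95% interval -0.21 to 0.13).

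Of the 19 enzymes 5 were lower and 1 was higher. ACAT2 had 61.6, 61.04 and 60.4 CPM with shSS18-SSX1-2 and 56.2, 57.8 and 57.4 CPM with shSS18-SSX1-1, against 94.3, 75.8 and 73.4 CPM with shRenilla. Its shRenilla replicate 1 was the highest library, yet all hairpin libraries lay below all controls (log2 fold change -0.48, SE 0.080, adjusted p = 0.000264 from edgeR). FDPS had 102, 96.1 and 99.2 CPM with shSS18-SSX1-2 and 87.6, 97.3 and 91.8 CPM with shSS18-SSX1-1, against 138, 123 and 132 CPM with shRenilla. Its groups did not overlap (log2 fold change -0.47, SE 0.064, adjusted p = 4.28e-05 from edgeR). TM7SF2 had 5.18, 5.08 and 7.34 CPM with shSS18-SSX1-2 and 5.16, 6.21 and 6.36 CPM with shSS18-SSX1-1, against 9.55, 7.13 and 8.66 CPM with shRenilla. Here 1 hairpin library reached into the control range (log2 fold change -0.54, SE 0.14, adjusted p = 0.00589 from edgeR).

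DHCR7 had 31.2, 29.03 and 33.4 CPM with shSS18-SSX1-2 and 29.04, 32.5 and 26.03 CPM with shSS18-SSX1-1, against 31.8, 33.9 and 48.04 CPM with shRenilla. The groups overlapped, and shRenilla replicate 3 was the high control (log2 fold change -0.34, SE 0.12, adjusted p = 0.0294 from edgeR). Without that library the log2 fold change of DHCR7 was -0.13 (adjusted p = 0.325 from edgeR), and 4 other single libraries also ended its call (shSS18-SSX1-1 replicates 1 and 3, shSS18-SSX1-2 replicates 1 and 2; adjusted p = 0.0627 to 0.0761). MSMO1 had 39.4, 44.8 and 41.9 CPM with shSS18-SSX1-2 and 39.7, 38.1 and 43.5 CPM with shSS18-SSX1-1, against 48.7, 47.5 and 45.9 CPM with shRenilla (log2 fold change -0.21, SE 0.073, adjusted p = 0.0282 from edgeR). Every hairpin library lay below every control. The call of MSMO1 was lost without any 1 of 7 libraries: shRenilla replicates 1, 2 and 3, shSS18-SSX1-1 replicates 1 and 2, and shSS18-SSX1-2 replicates 1 and 3 (adjusted p = 0.053 to 0.0958 from edgeR). It was also lost with a replicate block (0.0622).

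LSS was the enzyme that rose. It had 110.2, 97.7 and 107 CPM with shSS18-SSX1-2 and 103, 113 and 96.9 CPM with shSS18-SSX1-1, against 88.5, 76.2 and 96.9 CPM with shRenilla. The lowest hairpin library fell just short of the highest control, so the groups touched (log2 fold change 0.25, SE 0.084, adjusted p = 0.0266 from edgeR), and the call was lost without shRenilla replicate 2 (adjusted p = 0.0863 from edgeR) or shSS18-SSX1-2 replicate 3 (0.0529). The 13 enzymes that did not pass had log2 fold changes from -0.40 (EBP, 95% interval -0.75 to -0.04) to 0.16 (SC5D, -0.06 to 0.38). The value of EBP rested on the controls, at -0.11 without shRenilla replicate 1 (adjusted p = 0.575 from edgeR) and -0.57, a call, without shRenilla replicate 2 (0.00507). SC5D was called higher without shRenilla replicate 2 (0.29, 0.0304 from edgeR), and MVK lower without shRenilla replicate 2 or 3 or shSS18-SSX1-1 replicate 2 (0.0498, 0.0469 and 0.0473), as was IDI1 without shSS18-SSX1-1 replicate 3 (0.0373).

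Of the sensing genes only INSIG1 was called. It had 51.4, 57.5 and 49.1 CPM with shSS18-SSX1-2 and 51.2, 49.4 and 53.04 CPM with shSS18-SSX1-1, against 61.8, 62.7 and 59.9 CPM with shRenilla. All hairpin libraries were lower than all controls, with 1 of them close to the control range (log2 fold change -0.26, SE 0.070, adjusted p = 0.00838 from edgeR). SREBF2 and SCAP both had log2 fold changes that round to 0, with 95% intervals of -0.17 to 0.17 and -0.20 to 0.20, and INSIG2 had 0.03 (-0.16 to 0.21).

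**Figure D2:**
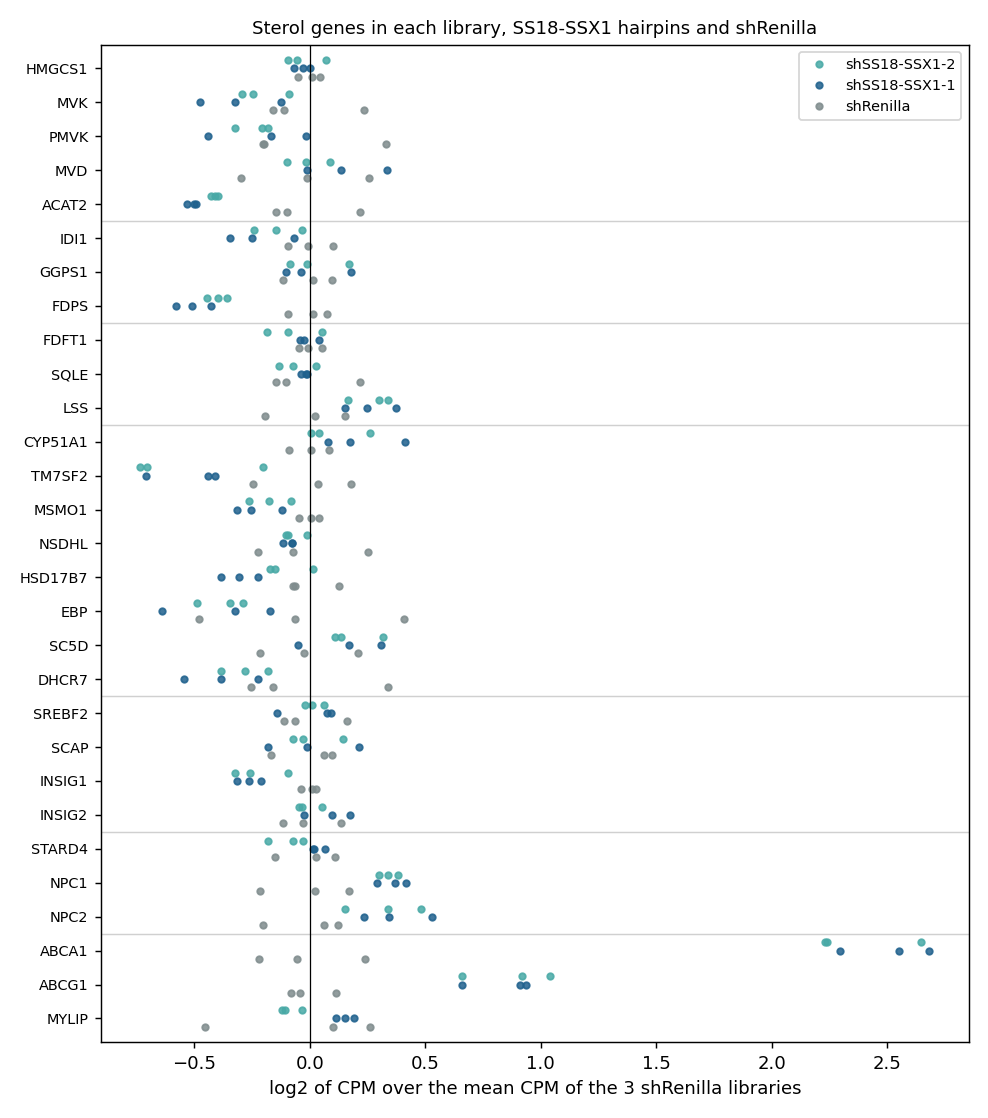
Each point is 1 library: the log2 ratio of its CPM to the mean of the 3 shRenilla libraries (horizontal axis) for the 29 genes (vertical axis, lines between roles), with shSS18-SSX1-2 in green, shSS18-SSX1-1 in dark blue and shRenilla in grey. ABCA1 and ABCG1 stand to the right of every control, ACAT2 and FDPS to the left, and for most enzymes the ranges of hairpin and shRenilla points overlap.

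The hairpins were compared directly, since they could differ in strength. SSX1 was 0.49 higher on the log2 scale with shSS18-SSX1-2 than with shSS18-SSX1-1 (adjusted p = 0.138 from edgeR). Of the 29 genes 0 were lower and 0 higher with shSS18-SSX1-2 in edgeR, DESeq2 and limma voom, and 0 had an unadjusted p under 0.05 in edgeR, where 0.0280% of all genes were called lower and 0.119% higher. Their log2 differences ran from -0.26 for MYLIP (95% interval -0.56 to 0.04) to 0.18 for HSD17B7 (-0.08 to 0.44). For ABCA1 the difference was -0.15 (-0.45 to 0.15), and for INSIG1 0.02 (-0.16 to 0.20). Both hairpins share the shRenilla libraries. Against these, ABCA1 rose by 2.36 with shSS18-SSX1-2 and by 2.51 with shSS18-SSX1-1, and INSIG1 fell by 0.25 and 0.27 in the same order. With shSS18-SSX1-2 alone 4 genes were lower and 3 higher, where 15.9% of all genes were lower and 18.3% higher, and LSS (adjusted p = 0.0654 from edgeR), MSMO1 (0.0895), DHCR7 (0.105) and NPC2 (0.0534) did not pass.

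Whether the response to dBRD9-A at 6 hr differed from the response to knockdown at 96 hr was tested by subtracting the knockdown effect from that of dBRD9-A in 1 model over the 15 libraries. Of the 29 genes 13 had a lower effect with dBRD9-A, 2 had a higher one and 14 did not pass, where 19.0% of 14560 genes were lower and 17.5% higher. This contrast contains the comparison with DMSO that was known when the list was drawn up. The experiments also differ in time, delivery and control, and these cannot be told apart from the perturbation.

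The 2 genes past the test with opposite signs in both experiments were LSS and NPC1. For LSS the log2 fold change was -0.29 with dBRD9-A and 0.25 with knockdown, a difference of -0.56 (SE 0.11, adjusted p = 0.00052 from edgeR). For NPC1 these values were -0.15, 0.34 and -0.51 (SE 0.11, adjusted p = 0.00142 from edgeR). As given above, each of the 2 genes rests in 1 of its comparisons on single libraries. The differences were -0.81 for INSIG1 (SE 0.081, adjusted p = 3.61e-07), -0.82 for STARD4 (SE 0.097, adjusted p = 2.78e-06) and -0.68 for CYP51A1 (SE 0.11, adjusted p = 6.88e-05; all edgeR). For INSIG1 both effects were falls, so the difference is one of size.

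ABCA1 was higher in both experiments, far more so with knockdown, with a difference of -2.14 (SE 0.20, adjusted p = 1.35e-07 from edgeR). That of ABCG1 was -0.74 (adjusted p = 0.0052 from edgeR). SREBF2 (-0.36), HMGCS1 (-0.35), FDFT1 (-0.31), SQLE (-0.45), MSMO1 (-0.37) and MVD (-0.45) made up the rest of the 13. MVD lost its call without DMSO replicate 2 or 3, dBRD9-A replicate 2 or 3, or shRenilla replicate 2 (adjusted p = 0.0589 to 0.075 from edgeR). NPC2 gained a call, with a lower effect under dBRD9-A, without shRenilla replicate 1 or 2, shSS18-SSX1-1 replicate 1 or shSS18-SSX1-2 replicate 3 (adjusted p = 0.0243 to 0.0471 from edgeR), SC5D without shRenilla replicate 2 or shSS18-SSX1-1 replicate 2 (0.00652 and 0.0305), and EBP, with a higher effect, without shRenilla replicate 2 (0.0167). Only ACAT2 (0.35, adjusted p = 0.00971) and FDPS (0.38, adjusted p = 0.0013; edgeR) had the higher effect with dBRD9-A, being lower under knockdown, and the value of ACAT2 was 0.23 without shRenilla replicate 1. DHCR7 had -0.35 with dBRD9-A and -0.34 with knockdown (-0.13 without shRenilla replicate 3), and its difference did not pass (95% interval -0.34 to 0.29, and -0.24 without shRenilla replicate 3).

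**Figure D3:**
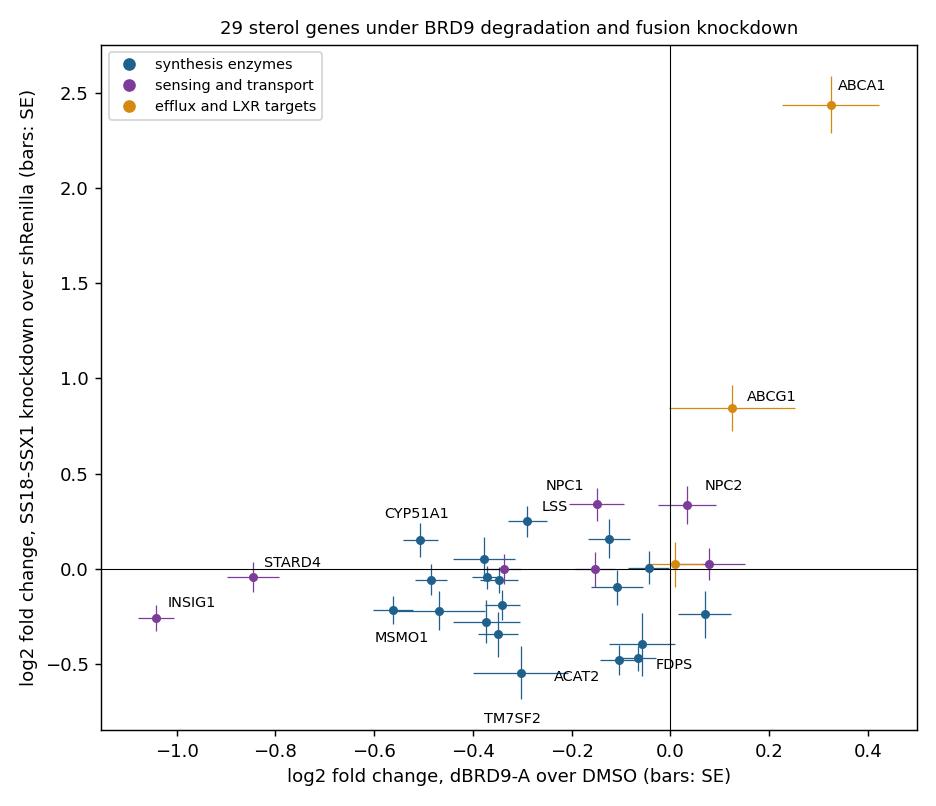
Log2 fold change with dBRD9-A over DMSO (horizontal axis) against that with SS18-SSX1 knockdown over shRenilla (vertical axis) for the 29 genes, with bars of 1 SE in each direction and colours for role. Most enzymes of synthesis lie left of 0 and near 0 on the vertical axis, INSIG1 and STARD4 lie at -1.04 and -0.85 on the horizontal axis, and ABCA1 lies alone at 2.44 on the vertical axis.

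The control states differed too. With shRenilla at 96 hr 21 of the 29 genes were lower than with DMSO at 6 hr and 2 were higher, where 26.6% of 14560 genes were lower and 27.9% higher, and 10 were lower past 1.5-fold, beside 9.77% of all genes. The median log2 fold change was -0.37 over the 29 genes and 0.01 over all genes tested. Virus, time in culture and preparation differ between these groups and cannot be told apart. This comparison shares the DMSO libraries with that of dBRD9-A and the shRenilla libraries with that of knockdown. The falls known when the list was drawn up were against these DMSO libraries, so its counts here support no direction.

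DHCR7 (chromosome 11, positions 71139239 to 71163914 of GRCh37) differed most, with 31.8, 33.9 and 48.04 CPM in shRenilla libraries, against 112, 123 and 112 CPM in DMSO libraries. No shRenilla library came near a DMSO library (3.07-fold lower with shRenilla, log2 fold change -1.62, SE 0.11, adjusted p = 1.11e-09 from edgeR). INSIG1 was 2.53-fold lower with shRenilla (log2 fold change -1.34, SE 0.061, adjusted p = 1.83e-12), at 61.5 ± 1.44 CPM with shRenilla and 155 ± 2.82 CPM with DMSO (SD, n = 3 each; edgeR). Past 1.5-fold were also EBP (-1.21), SQLE (-1.02), LSS (-0.97), STARD4 (-0.91), CYP51A1 (-0.83), ABCA1 (-0.81), SREBF2 (-0.79) and MSMO1 (-0.70). ABCA1, which rose on knockdown, was thus lower in shRenilla than in DMSO libraries.

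NPC2 was higher with shRenilla (log2 fold change 0.78, SE 0.10, adjusted p = 3.02e-06 from edgeR), at 47.2 ± 5.498 CPM with shRenilla and 27.5 ± 1.58 CPM with DMSO (SD, n = 3 each). PMVK was also called higher (0.41), but without shRenilla replicate 1 its log2 fold change was 0.21 (adjusted p = 0.0607 from edgeR). HMGCS1 changed little (-0.14) and lost its call without any 1 of the DMSO replicates or shRenilla replicate 3 (adjusted p = 0.0641 to 0.108 from edgeR). The calls of TM7SF2 (without DMSO replicate 2 or 3, any dBRD9-A replicate, or shRenilla replicate 2 or 3; 0.0504 to 0.229), HSD17B7 (DMSO replicate 2, shRenilla replicate 2 or 3; 0.0665 to 0.0902), SC5D (DMSO replicate 1, shRenilla replicate 1 or 3; 0.0548 to 0.0935) and SCAP (DMSO replicate 2, shRenilla replicate 2; 0.0872 and 0.0974) also rested on single libraries. Values moved by over 1.5 times for TM7SF2 without DMSO replicate 2 (-0.23, against -0.35 with all libraries) and for SC5D without shRenilla replicate 1 (-0.18, against -0.28). NPC1 was called lower without shRenilla replicate 3 (-0.26, 0.0147 from edgeR). Of the other genes, MVD (-0.57), MVK (-0.56), FDFT1 (-0.55), IDI1 (-0.49), FDPS (-0.37) and ACAT2 (-0.30) were lower, and GGPS1, NSDHL, INSIG2, ABCG1 and MYLIP did not pass.

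Across the 5 groups INSIG1 was lowest with the hairpins (52.7 ± 4.38 CPM with shSS18-SSX1-2 and 51.2 ± 1.83 with shSS18-SSX1-1), followed by shRenilla (61.5 ± 1.44), dBRD9-A (75.2 ± 0.418) and DMSO (155 ± 2.82; SD, n = 3 each). The neighbours shSS18-SSX1-2 and shSS18-SSX1-1 did not differ beyond their spread. STARD4 had means between 20.8 and 23.03 CPM in the 4 groups other than DMSO, where the range of shRenilla overlapped each of the rest, against 41.6 ± 1.44 CPM with DMSO (SD, n = 3). ABCA1 had 18.3 ± 3.12 CPM with shSS18-SSX1-2, 20.03 ± 2.65 with shSS18-SSX1-1, 3.49 ± 0.575 with shRenilla, 7.66 ± 0.386 with dBRD9-A and 6.16 ± 0.439 with DMSO (SD, n = 3 each). Only its 2 hairpin groups overlapped.

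**Figure D4:**
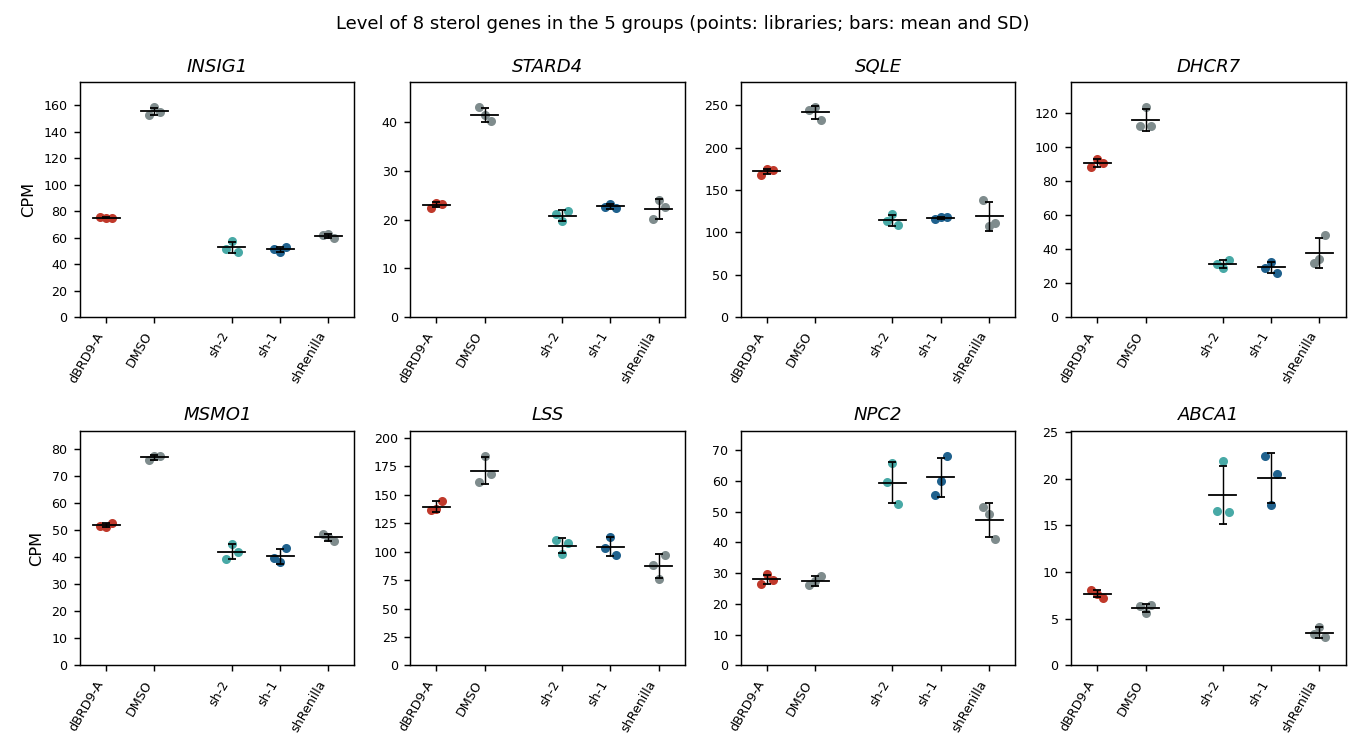
CPM (vertical axes, from 0) of 8 genes in the 5 groups, with points for libraries and bars for the mean and SD of 3; sh-2 and sh-1 stand for shSS18-SSX1-2 and shSS18-SSX1-1. INSIG1, STARD4, SQLE, DHCR7, MSMO1 and LSS are highest with DMSO, and ABCA1 and NPC2 with the SS18-SSX1 hairpins.

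Other genes of the pathway were counted in lists outside the 29. The shares of all genes called, given above, were 18.2% lower and 17.7% higher with dBRD9-A and 22.1% lower and 22.5% higher with knockdown, and with so few genes a list nothing particular to a list is read from its counts. Of 9 genes of SREBP processing and sterol-regulated degradation, 2 were lower and 2 higher with dBRD9-A, and 3 lower and 0 higher with knockdown. SREBF1, which encodes the relative of SREBP-2 that drives fatty acid synthesis, fell by 0.25 with dBRD9-A and by 0.31 with knockdown. Of 5 accessory proteins of synthesis, 2 were lower with dBRD9-A and 0 higher, and 2 lower and 2 higher with knockdown. TMEM97, a sterol-regulated binding partner of NPC1, fell by 0.27 with dBRD9-A and rose by 0.59 with knockdown, a difference of -0.88 (adjusted p = 2.58e-08 from edgeR). LBR, a lamin receptor with sterol reductase activity, fell by 0.12 with dBRD9-A and by 0.61 with knockdown.

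Of 12 genes of sterol uptake, esterification and transport, 11 were tested with dBRD9-A, where 3 were lower and 3 higher, and 6 rose and 0 fell with knockdown. VLDLR, a lipoprotein receptor, was 1.58-fold higher with dBRD9-A and 2.83-fold higher with knockdown. Its counts were low, at 32 to 41 per DMSO library and 63 to 80 per shRenilla library. LIPA, the lysosomal lipase that frees cholesterol from esters, had a log2 fold change of -0.07 with dBRD9-A (adjusted p = 0.163 from edgeR) and rose by 0.85 with knockdown. CAV1, the caveolin of cholesterol-rich membrane pits, had 254 counts in the 6 hairpin libraries, against 0 in the 3 shRenilla libraries, which is at least 44.2-fold higher when 3 counts are set as the floor of all shRenilla libraries taken as 1 group. Of the LXR list, LPCAT3, a phospholipid acyltransferase, fell by 0.11 with dBRD9-A and rose by 0.21 with knockdown. The receptor genes NR1H2 and NR1H3 did not pass in either comparison. Of 8 genes of the non-sterol branches 2 were lower and 1 higher with dBRD9-A, and 3 lower and 1 higher with knockdown. PDSS2, a subunit of the ubiquinone side chain synthase, fell by 0.52 with dBRD9-A and did not pass with knockdown (log2 fold change -0.20, adjusted p = 0.0806 from edgeR).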

How the data were processed

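RNA of HSSYII cells was sequenced in 15 libraries, 3 for each of 5 groups. Per the labels and the submitters' processing notes, the authors aligned reads to hg19 (GRCh37) with STAR and deposited raw read counts per RefSeq transcript, made with featureCounts. The tool versions and strand setting were not given in the sources used here. Reads of overlapping antisense genes may therefore be mixed. The labels name the NEBNext Ultra II kit and the methods NEBNext Ultra. In 1 deposited table (dBRD9-A replicate 2) 4535 symbols were broken after 8 letters, and its counts were read as the last word of each line.

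Of 48104 transcript rows, the one with the highest count over all libraries was kept for each of 25681 symbols; 15 of the 29 genes had several rows, 3 of them tied. Symbols turned into dates were restored for 78 of 80 rows. Total counts of 18580419 to 27031647 per library set the precision. Genes were filtered with filterByExpr (minimum count 10), scaled with TMM and tested with edgeR 4.0.16 (robust quasi-likelihood) in R 4.3.3, with Benjamini-Hochberg adjustment over all genes tested (13652 for the 6 libraries of the dBRD9-A experiment, 14269 for the 9 of knockdown, 14560 for all 15). Knockdown is the mean of both hairpins. CPM values use TMM factors of all 15 libraries, so fold changes differ slightly from their ratios, and levels are not compared between genes. An SE is the size of the log2 fold change divided by the root of the F statistic. The code was tested on simulated data.

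As alternatives, voom in limma 3.58.1 and DESeq2 1.42.0 were run, scaling and filter were changed, rows were summed per symbol, all libraries were fitted together, hairpins were taken singly, a fold above 1.5 was required, the replicate number was used as a block, and libraries were left out in turn. Values per library are given for the 8 called genes with the largest change in each main comparison, for genes with opposite calls, and for others set beside them. From the other lists at most 4 genes each are named, by smallest adjusted p. The 29 genes, the lists and the tests were chosen with earlier results of these data known.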

Additional observations from a re-analysis of the deposited data

How the results depend on the processing

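With a fold above 1.5 required as well, 2 genes were lower and 0 higher with dBRD9-A, and 0 lower and 2 higher with knockdown. The rise of ABCA1 with dBRD9-A left 0 genes higher under DESeq2 and under the fit of all 15 libraries, and 0 to 1 when single libraries were left out. With shSS18-SSX1-2 alone 3 genes were higher with knockdown. For shRenilla against DMSO 1 to 2 genes were higher when single libraries were left out, with 1 without shRenilla replicate 1. Allowing 1 mismatch moved the windows with the sterol regulatory element letters to 10, since more letters then match. For ABCA1 and for shSS18-SSX1-2 alone the cause was not tested.

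Among genes called in a comparison no log2 fold change turned its sign under the alternatives run, while several genes without a call did, among them NSDHL (-0.18 to 0.07), MYLIP (-0.15 to 0.19) and MVD (-0.06 to 0.23) with knockdown when single libraries were left out. Left-out libraries gave 15 to 20 genes lower with dBRD9-A, 4 to 7 lower and 4 to 5 higher with knockdown, 12 to 14 lower and 2 to 3 higher for the difference of effects, and 17 to 21 lower for shRenilla against DMSO. The fit of all 15 libraries gave 14 genes lower with dBRD9-A, and upper-quartile scaling gave 16 lower for shRenilla against DMSO. Replicate numbers did not pair the libraries: same-number correlations were -0.134, -0.0116 and -0.0509 between DMSO and dBRD9-A and -0.611 to 0.457 in the other experiment. There, libraries of different numbers correlated from -0.491 (shRenilla replicate 2 with shSS18-SSX1-2 replicate 3) to 0.687 (shSS18-SSX1-1 replicate 3 with shSS18-SSX1-2 replicate 2). Correlations were all positive among these 2 hairpin libraries and shRenilla replicate 2 (0.371 to 0.687). So were those among shRenilla replicate 1, shSS18-SSX1-1 replicate 2 and shSS18-SSX1-2 replicate 3 (0.229 to 0.59). The same held for shRenilla replicate 3 and replicate 1 of each hairpin (0.266 to 0.362). Pairs from different sets ran from -0.611 to 0.286. Neither the fit by group nor the replicate block takes up such a pattern, and both treat these libraries as independent. Its source was not tested. With a replicate block 19 genes were lower and 1 higher with dBRD9-A, 5 and 5 with knockdown, 0 and 0 between hairpins, 13 and 2 for the difference, and 19 and 2 for shRenilla against DMSO. Low counts limit the precision for ABCA1 (62 to 92 counts per shRenilla library), ABCG1, HSD17B7 and TM7SF2.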
